A study of Drosophila melanogaster with 14 samples.

Results

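Genes of the presynaptic release machinery and the active zone were described across the Kenyon cells, the intrinsic neurons of the Drosophila mushroom body. The list was a fixed one of 43 gene names, and a gene belonged to it if its name stood in the gene table. This gave 41 of the 13931 genes, and all 41 reached the minimum of 10 TPM in at least 1 library that 8646 genes of the table passed. Another 2 listed genes, syd-1 and tomosyn, stood in the table under the symbols RhoGAP100F and Tomosyn. Their values are given where they belong, but they are not counted among the 41. The rule itself used no measured value. The names on the list were, however, chosen with earlier results of these data known, so the shares called below are descriptive.

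Each library was made from nuclear RNA by TAPIN-seq, in which tagged nuclei of a chosen cell population are affinity-purified before sequencing. The tag was UNC84-2XGFP, expressed under 1 of 7 split-GAL4 driver combinations: MB607B for γd, MB131B for γm+d, MB370B for α′/β′ap+m, MB418B for α′/β′m, MB371B for α/βp, MB185B for α/βs and MB594B for α/βc. All flies shared the isogenic MJ2 background, a Canton-S derivative, and were of mixed sex and 2 to 5 days old, with about 400 heads pooled per library and 2 replicate libraries per driver. The γ class thus had 4 libraries, the α′/β′ class 4 and the α/β class 6. The drivers limit the groups as models, because MB131B also labels γd cells, MB370B also labels α′/β′m cells, and each driver labels some neurons outside the mushroom body. No treatment was applied, and there was no other control group.

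At a synapse, a transmitter-filled vesicle is docked at the active zone, primed, and fused with the membrane when calcium enters. Soluble N-ethylmaleimide-sensitive factor attachment receptors, or SNAREs, pull the membranes together, synaptotagmins sense calcium, and scaffold proteins such as Bruchpilot, RIM and RIM-binding protein hold channels and vesicles in place. Clathrin, dynamin and their partners then recover the membrane. Kenyon cell output synapses onto mushroom body output neurons are the place where dopamine changes synaptic strength during olfactory learning.

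Values are in TPM, the abundance of a transcript per length relative to all transcripts of a library. They allow nuclear RNA levels to be set side by side between genes. Cytoplasmic RNA was not measured, and the paper says that it may be higher for some genes. A gene's rank here is therefore not its rank in the whole cell. Since TPM keep no read numbers, the depth behind each value is unknown. Genes above 0 TPM were fewest in α/βp replicate 1 (6534) and in γd (5632 and 7601), while the other 11 libraries, α/βp replicate 2 among them at 9602, had 8836 to 11359. The Kenyon cell gene ey was at 631 to 2854 TPM. The glial gene repo was at 0 to 2.18 TPM, but other glial genes were higher. The 8 glial genes looked up summed to 49.2 to 164 TPM in γ, 83.9 to 308 in α′/β′ and 129 to 228 in α/β. The 9 photoreceptor genes looked up summed to 373 to 1003 TPM in γ, 377 to 1484 in α′/β′ and 971 to 3789 in α/β, with ninaE above 0 in every library and 3 of the others at 0 in some γ library. The 6 fat body genes summed to 423 to 1331 TPM in γ, 574 to 1976 in α′/β′ and 1644 to 6117 in α/β. Of the marker genes, 1 for photoreceptors was called lower in γ than in α/β, and 2 for fat body, 1 for muscle and 1 for Kenyon cells were called lower in α′/β′ than in α/β. The 7 muscle genes summed to 120 to 616 TPM in γ, 90.3 to 256 in α′/β′ and 224 to 735 in α/β, and the part of these cells in the class differences below was not tested. In RNA from pooled nuclei, fewer cells of a type and less RNA per cell cannot be told apart.

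By mean level the listed genes stood between the percentiles 69.3 and 99.9 of the gene table. Together the 41 counted genes, without RhoGAP100F and Tomosyn, took up 30404 to 42001 TPM of the 1000000 in a library. The highest mean over the 14 libraries was that of unc-13, the vesicle priming factor, at 4487 TPM ± 947 (SD, n = 14). Next came brp, which encodes the Bruchpilot scaffold of the T-bar, at 4126 TPM ± 937 (SD, n = 14), and Syt1, the main calcium sensor of fast release, at 3224 TPM ± 1130 (SD, n = 14). The spread of these 3 means overlaps, so their order is not resolved. At the other end stood Rop, the fly Sec1/Munc18 protein that works with syntaxin, at 18.0 TPM ± 6.48 (SD, n = 14), the neuroligin gene Nlg1 at 18.7 TPM ± 7.20 and comt, which encodes the SNARE-disassembling ATPase NSF, at 33.3 TPM ± 20.0.

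**Figure D1:**
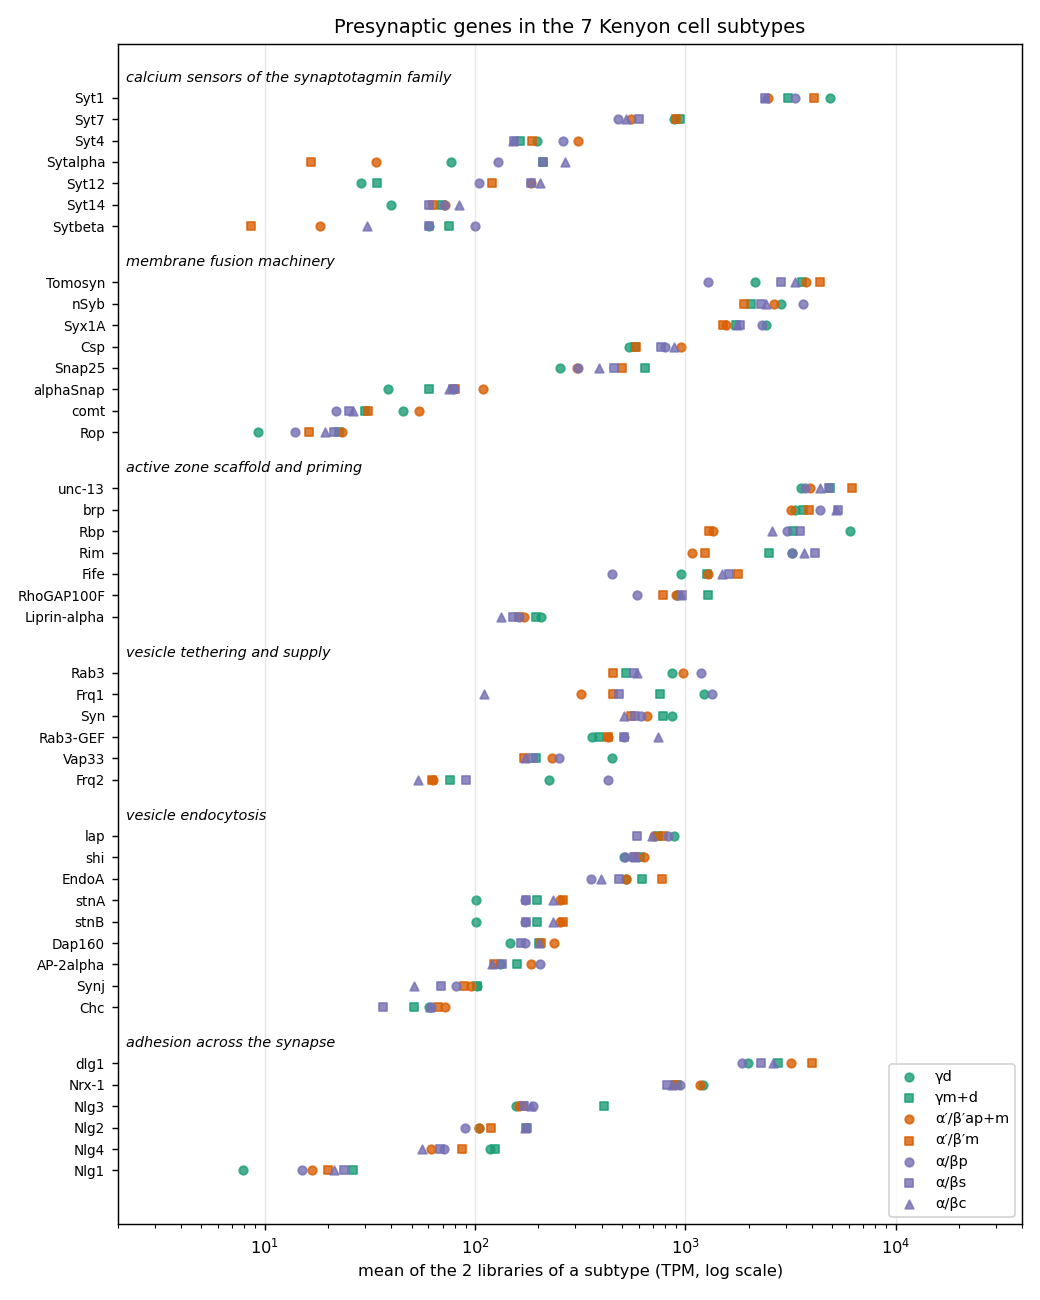
Mean nuclear RNA level of each listed gene in each of the 7 Kenyon cell subtypes (horizontal axis, TPM on a log scale; each symbol is the mean of 2 libraries, coloured by class), ordered by role. Genes such as Syn and shi stay within a narrow band, while the symbols of Sytalpha, Sytbeta, Frq1 and Frq2 spread widely.

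To ask which release genes separate the classes, each pair of classes was compared with limma on quantile-normalized log2(TPM + 1), and a gene was called when its adjusted p was under 0.05 and the difference at least 2-fold. Between γ and α′/β′, 5 of the 41 genes were called (12.2%), beside 2.82% of all tested genes. Sytalpha, Sytbeta, Rim and Rbp were higher in γ, and Syt12 was lower. Between α′/β′ and α/β, 4 were called (9.76%, beside 4.89% of all genes), and all of them, Sytalpha, Sytbeta, Rim and Rbp, were lower in α′/β′. Between γ and α/β, only Syt12 was called (2.44%, beside 3.10%), and it was lower in γ. The 3 comparisons share their libraries pairwise, so the same low α′/β′ values enter the first 2.

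Most of the other members differed little. The median size of the log2 difference over the 41 genes was 0.47 for γ against α′/β′, 0.35 for γ against α/β and 0.33 for α′/β′ against α/β, beside 0.61, 0.57 and 0.52 over all tested genes. In sign, the median member lay at 0.09, 0.12 and 0.03, beside -0.16, -0.11 and 0.07 for all genes.

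**Figure D2:**
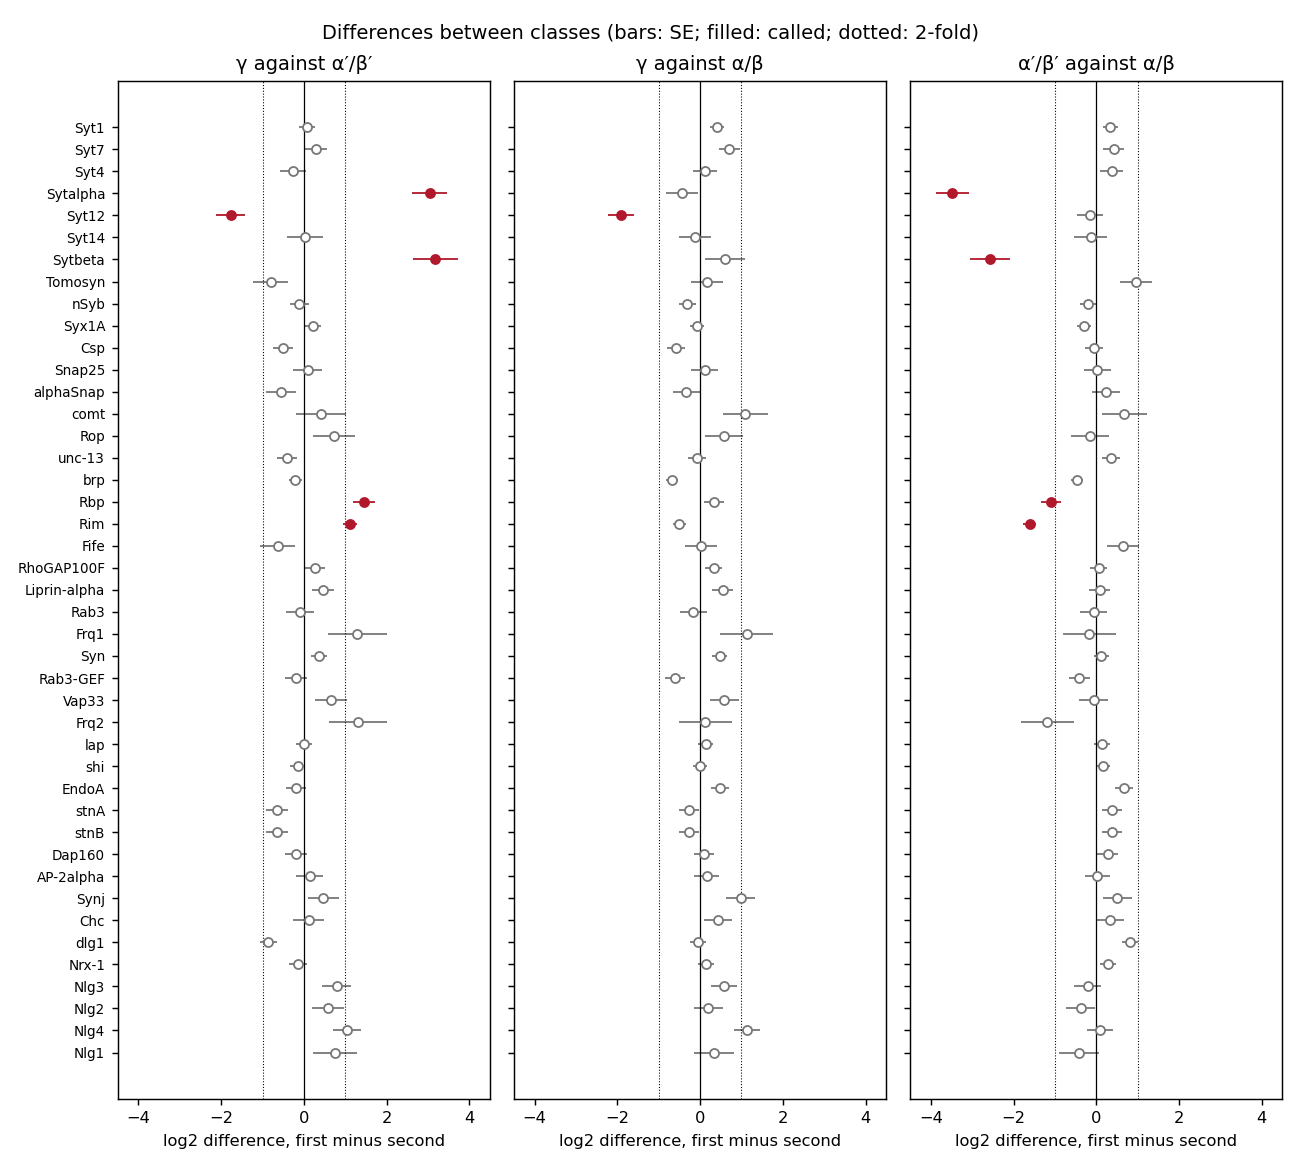
Log2 difference of every listed gene between each pair of classes (horizontal axis, first class minus second; bars are the SE of the limma fit; filled red points were called; dotted lines mark 2-fold). Sytalpha, Sytbeta, Rim and Rbp stand apart in both comparisons with α′/β′, and Syt12 in both comparisons with γ.

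The synaptotagmins held the largest class differences. This family of membrane-anchored proteins with paired C2 domains contributes 7 of the members. Syt1 and Syt7 are calcium sensors of release, Syt4 is known from regulated release at the fly neuromuscular junction, Sytalpha and Sytbeta have been linked to neurosecretory cells, and Syt12 and Syt14 are divergent members. Of the 7, 3 were called in at least 1 class pair and 4, Syt1, Syt4, Syt7 and Syt14, in none.

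Sytalpha (FBgn0261089; BDGP6 chromosome 2L, 17592260 to 17604387, plus strand) was at 37.8 and 115 TPM in the γd libraries and at 161 and 258 TPM in γm+d. The α′/β′ libraries had 29.3 and 38.0 TPM in α′/β′ap+m and 11.8 and 21.5 TPM in α′/β′m. The α/β libraries had 113 and 143 TPM in α/βp, 197 and 226 TPM in α/βs and 201 and 335 TPM in α/βc. Each α/β library lay above each α′/β′ library, whereas the lower γd library reached down to the level of α′/β′ap+m. The log2 difference was 3.04 (SE 0.43, adjusted p = 0.00032) for γ against α′/β′ and -3.48 (SE 0.39, adjusted p = 1.09e-05) for α′/β′ against α/β. Both calls held in each of the 14 fits that left out 1 library, and with 1 value per subtype. An exon of Sytalpha shares 40 bases with CG6870 on the opposite strand, and whether reads were assigned by strand is not given in the sources used here.

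Sytbeta (FBgn0261090; BDGP6 chromosome 3L, 15014695 to 15064977, minus strand) was also low in α′/β′, at a lower level overall. Its γ libraries had 87.2 and 33.9 TPM in γd and 63.7 and 85.9 TPM in γm+d. The α′/β′ libraries had 17.3 and 19.4 TPM in α′/β′ap+m and 4.73 and 12.5 TPM in α′/β′m. In α/β it was at 66.7 and 134 TPM in α/βp, 51.0 and 69.1 TPM in α/βs and 23.5 and 37.6 TPM in α/βc. The highest α′/β′ library therefore lay below the lowest library of both other classes. The log2 difference was 3.18 (SE 0.54, adjusted p = 0.00198) for γ against α′/β′ and -2.57 (SE 0.49, adjusted p = 0.00282) for α′/β′ against α/β. With 1 value per subtype the adjusted p rose to 0.0908 and 0.0862, past the threshold.

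Syt12 (FBgn0261085; BDGP6 chromosome X, 13359248 to 13368179, plus strand) had the opposite kind of pattern, with γ as the low class. It was at 12.1 and 45.1 TPM in γd and at 28.3 and 40.3 TPM in γm+d. The α′/β′ libraries had 191 and 178 TPM in α′/β′ap+m and 117 and 124 TPM in α′/β′m. Those of α/β had 78.7 and 130 TPM in α/βp, 185 and 184 TPM in α/βs and 187 and 221 TPM in α/βc. No γ library reached the level of any other library. The γ class differed from α′/β′ by -1.77 on the log2 scale (SE 0.35, adjusted p = 0.00584). Its difference from α/β was -1.92 (SE 0.32, adjusted p = 0.00124). With 1 value per subtype the adjusted p was 0.166 and 0.0849.

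The other synaptotagmins gave no class call. Syt1, the most abundant of them, was at 5278 and 4438 TPM in γd, 3772 and 2359 TPM in γm+d, 2504 and 2443 TPM in α′/β′ap+m, and 5155 and 3011 TPM in α′/β′m. Its α/β libraries had 4327 and 2279 TPM in α/βp, 2288 and 2481 TPM in α/βs, and 2573 and 2220 TPM in α/βc. The classes overlapped, and the log2 difference was at most 0.41 (SE 0.18, adjusted p = 0.275, γ against α/β). Syt7 reached 0.70 (SE 0.25, adjusted p = 0.174) in that same comparison. Syt4 and Syt14 had mean levels of 203 and 65.6 TPM, and neither was called in any pair of classes or subtypes.

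**Figure D3:**
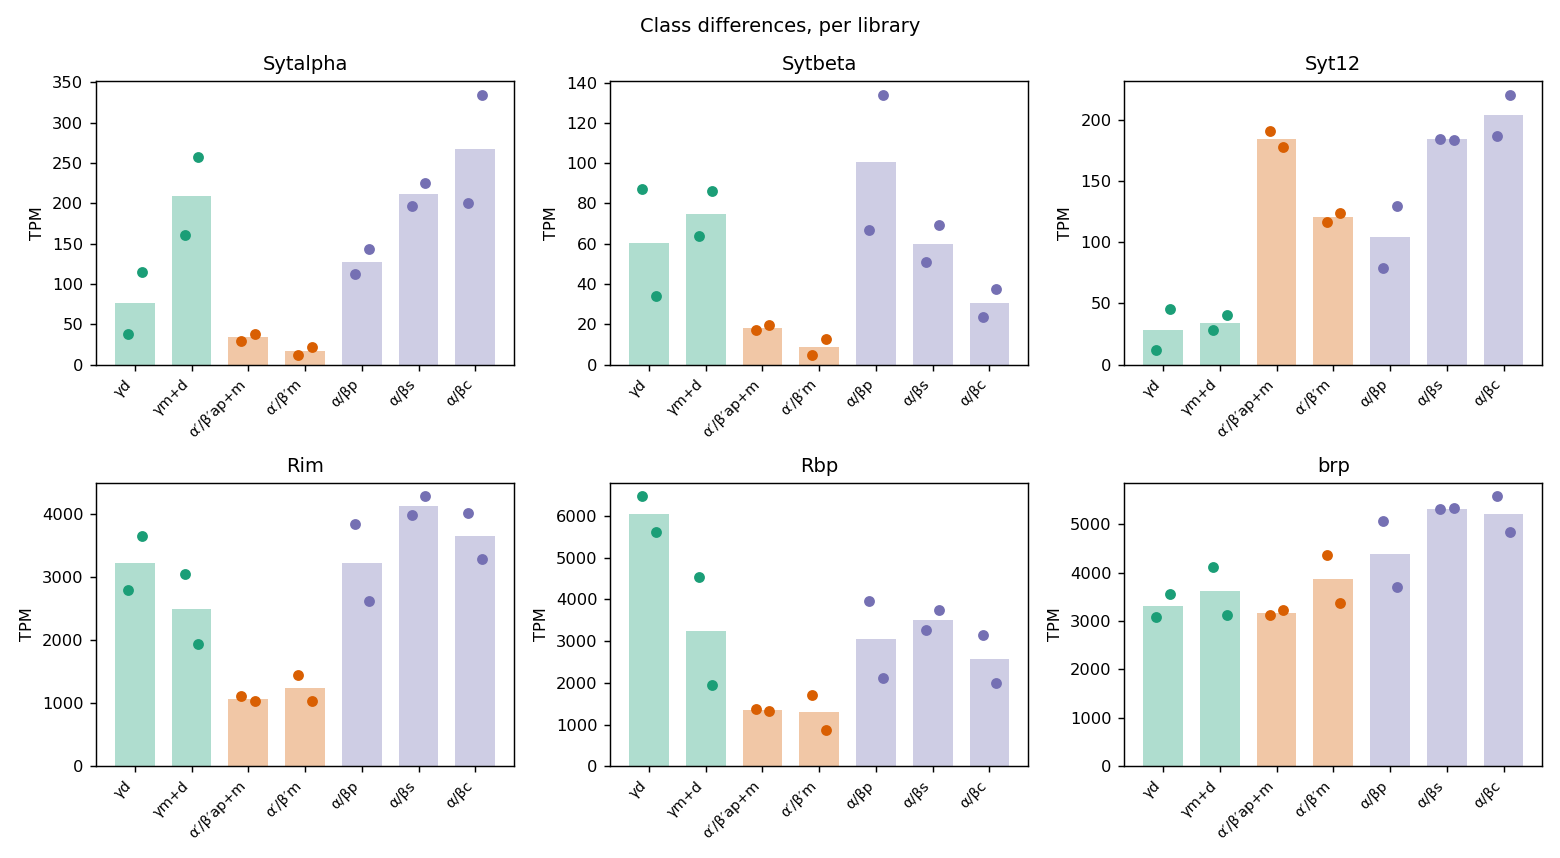
TPM per library (points; 2 per subtype) and mean of the 2 (bars) for Sytalpha, Sytbeta, Syt12, Rim, Rbp and brp, coloured by class, with an axis from 0 in each panel. The 4 α′/β′ libraries are low for Sytalpha, Sytbeta, Rim and Rbp, and the 4 γ libraries are low for Syt12.

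Among the active zone scaffold and priming genes, Rim and Rbp were low in α′/β′ while brp and unc-13 were not called between classes. Rim binds Rab3, calcium channels and RIM-binding protein, and Rbp encodes that RIM-binding protein, which links the cacophony channel to the scaffold.

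Rim (FBgn0053547; BDGP6 chromosome 3R, 17872748 to 17916578, minus strand) was at 2800 and 3646 TPM in γd and 3040 and 1940 TPM in γm+d. The α′/β′ libraries were close together, with 1106 and 1034 TPM in α′/β′ap+m and 1450 and 1032 TPM in α′/β′m. In α/β it was at 3833 and 2617 TPM in α/βp, 3980 and 4278 TPM in α/βs and 4016 and 3278 TPM in α/βc. The α′/β′ range did not overlap that of either other class. The log2 difference was 1.11 (SE 0.17, adjusted p = 0.000779) for γ against α′/β′ and -1.61 (SE 0.16, adjusted p = 2.37e-06) for α′/β′ against α/β. The second of these calls held in all 14 fits without 1 library and with 1 value per subtype. For the first, the log2 difference fell to 0.98, just under the 2-fold limit, without the γd and α/βp libraries. Its adjusted p rose to 0.114 with 1 value per subtype and to 0.0734 without a variance trend.

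Rbp (FBgn0262483; BDGP6 chromosome 3R, 15374635 to 15402543, plus strand) reached its highest values in γd, at 6473 and 5613 TPM. The γm+d libraries had 4537 and 1955 TPM, those of α′/β′ap+m 1383 and 1329 TPM, and those of α′/β′m 1719 and 873 TPM. In α/β the values were 3969 and 2118 TPM in α/βp, 3272 and 3753 TPM in α/βs and 3146 and 2000 TPM in α/βc. Again the α′/β′ range lay below both others, although replicates of γm+d and of α′/β′m differed widely. Of these totals, transcript Rbp-RM held 4281 and 2398 TPM in γd, 1372 TPM in γm+d replicate 1 and 2807 TPM in α/βp replicate 1. It was at 89.3 TPM in α′/β′m replicate 1 and at 0 to 0.02 TPM in the remaining libraries. The log2 difference was 1.45 (SE 0.27, adjusted p = 0.00349) for γ against α′/β′ and -1.10 (SE 0.24, adjusted p = 0.00888) for α′/β′ against α/β. The latter fell under 2-fold, to -0.92, without α′/β′m replicate 2 and to -0.90 with the number of genes above 0 as a covariate, and its adjusted p was 0.177 with median-ratio scaling, 0.101 without a variance trend and 0.0705 with 1 value per subtype. The former had an adjusted p of 0.052 without the γd and α/βp libraries, 0.0617 without a variance trend and 0.0527 with 1 value per subtype. Exons of Rbp share 327 bases with h-cup on the opposite strand.

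For brp (FBgn0259246) the libraries were at 3081 and 3556 TPM in γd, 4125 and 3114 TPM in γm+d, 3128 and 3222 TPM in α′/β′ap+m, and 4369 and 3362 TPM in α′/β′m. Those of α/β had 5057 and 3693 TPM in α/βp, 5311 and 5326 TPM in α/βs, and 5577 and 4842 TPM in α/βc. The γ class lay below α/β by 0.67 on the log2 scale (SE 0.15, adjusted p = 0.0121), less than 2-fold and with overlapping ranges. Against α′/β′ the γ difference was -0.21 (SE 0.16, adjusted p = 0.59).

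The total of unc-13 (FBgn0025726) was not called between classes, at 4196 TPM ± 929 (SD, n = 4) in γ, 5058 TPM ± 1354 (SD, n = 4) in α′/β′ and 4301 TPM ± 588 (SD, n = 6) in α/β. By library it was at 2936 and 4140 TPM in γd, 5108 and 4602 TPM in γm+d, 3929 and 3893 TPM in α′/β′ap+m, and 6552 and 5857 TPM in α′/β′m. In α/β the values were 4034 and 3386 TPM in α/βp, 4566 and 5081 TPM in α/βs, and 4112 and 4624 TPM in α/βc. The α′/β′m libraries were the highest and 1 γd library the lowest. Exons of unc-13 share 3528 bases with asRNA:CR43425 and 1463 bases with CR43361 on the opposite strand. On the same strand they share 890 bases with a transib3 element. The part of these overlaps in the unc-13 values was not tested. Liprin-alpha, a scaffold of active zone assembly, had a mean of 168 TPM and gave no call, and RhoGAP100F, listed as syd-1 and another assembly factor, had a mean of 910 TPM and no class call.

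Within a class, subtypes could be compared with only 2 libraries a side, and a spread shared over all 7 subtypes. Between γd and γm+d limma called 0 of the 41 genes, beside 1.16% of all genes, and 11 of the 41 had an unadjusted p under 0.05, as did 1626 of the 8646 tested genes. Between α/βs and α/βc it called 0 members and 0% of all genes, with 3 members and 356 genes in all at an unadjusted p under 0.05. Between α′/β′m and α′/β′ap+m it called 1 member, Rab3 (2.44%, beside 1.10% of all genes). Between α/βp and α/βs it called 3 (7.32%, beside 1.99%), with Rab3 and Frq2 higher and Fife lower in α/βp. Between α/βp and α/βc it also called 3 (7.32%, beside 3.17%), with Frq1 and Frq2 higher and Fife lower in α/βp. The last 2 comparisons share the α/βp libraries.

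Frequenins, the fly members of the neuronal calcium sensor-1 family, bind calcium and modulate release. Frq1 (FBgn0030897; chromosome X, 18155369 to 18174744) and Frq2 (FBgn0083228; chromosome X, 18177612 to 18204407) are neighbouring, closely similar genes on the plus strand, so how reads were split between them is uncertain. Frq1 was at 1772 and 914 TPM in α/βp, 392 and 570 TPM in α/βs and 116 and 105 TPM in α/βc. Frq2 was at 441 and 415 TPM in α/βp, 90.8 and 89.8 TPM in α/βs and 54.5 and 52.0 TPM in α/βc. Both genes thus had non-overlapping libraries in the 3 α/β subtypes, with α/βp highest and α/βc lowest.

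Against α/βc, the α/βp difference was 3.62 on the log2 scale for Frq1 (SE 0.47, adjusted p = 0.00189) and 3.23 for Frq2 (SE 0.46, adjusted p = 0.00335), and both calls held in all 14 fits without 1 library. Against α/βs, it was 2.23 for Frq2 (SE 0.46, adjusted p = 0.0343), a call lost in 7 of those 14 fits, and with median-ratio scaling (adjusted p = 0.0948) or no variance trend (0.0752). For Frq1 against α/βs it was 1.38 (adjusted p = 0.174). Outside α/β, Frq1 was at 1059 and 1402 TPM in γd, 1057 and 460 TPM in γm+d, 321 and 319 TPM in α′/β′ap+m and 639 and 265 TPM in α′/β′m. Frq2 was at 306 and 142 TPM in γd, and the γm+d and α′/β′ libraries lay between 53.3 and 90.0 TPM.

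Fife encodes a Piccolo- and RIM-related active zone protein that promotes vesicle docking. In α/βp it (FBgn0264606; chromosome 3L, 2655415 to 2711690, minus strand) was at 490 and 400 TPM, the lowest 2 of the 14 libraries. The α/βs libraries had 1586 and 1623 TPM and the α/βc libraries 1379 and 1590 TPM. The other classes had 1265 and 634 TPM in γd, 1177 and 1347 TPM in γm+d, 1259 and 1291 TPM in α′/β′ap+m and 1551 and 1988 TPM in α′/β′m. The log2 difference of α/βp was -1.87 (SE 0.27, adjusted p = 0.00567) against α/βs and -1.78 (SE 0.27, adjusted p = 0.0046) against α/βc. Each call was lost in 1 of the 14 fits, without α/βs replicate 2 (adjusted p = 0.0675) and without α/βc replicate 2 (adjusted p = 0.0717). With median-ratio scaling the adjusted p was 0.124 and 0.157, and without a variance trend 0.0661 and 0.0611.

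Rab3 (FBgn0005586), the vesicle GTPase that binds RIM, differed within 2 classes. It was at 973 and 963 TPM in α′/β′ap+m and at 400 and 504 TPM in α′/β′m. In α/βp it was at 1434 and 941 TPM, against 527 and 606 TPM in α/βs and 566 and 610 TPM in α/βc. The γd libraries had 989 and 745 TPM and the γm+d libraries 456 and 585 TPM. Within each class 1 subtype lay above the others with no overlap. The log2 difference was -1.15 (SE 0.22, adjusted p = 0.0293) for α′/β′m against α′/β′ap+m, and 1.02 (SE 0.22, adjusted p = 0.0398) for α/βp against α/βs. Against α/βc it was 0.97 (adjusted p = 0.0344), just under 2-fold. The first call was lost in 7 of the 14 fits without 1 library (highest adjusted p = 0.269) and the second in 10 (highest adjusted p = 0.221). Both were lost on plain TPM, under median-ratio scaling and without a variance trend, and the second also with no filter on low values (adjusted p = 0.0521). Of 8 glial genes, 2 were called higher in α′/β′m than in α′/β′ap+m, and the list summed to 240 and 308 TPM against 83.9 and 118 TPM, a part in the Rab3 difference that was not tested.

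**Figure D4:**
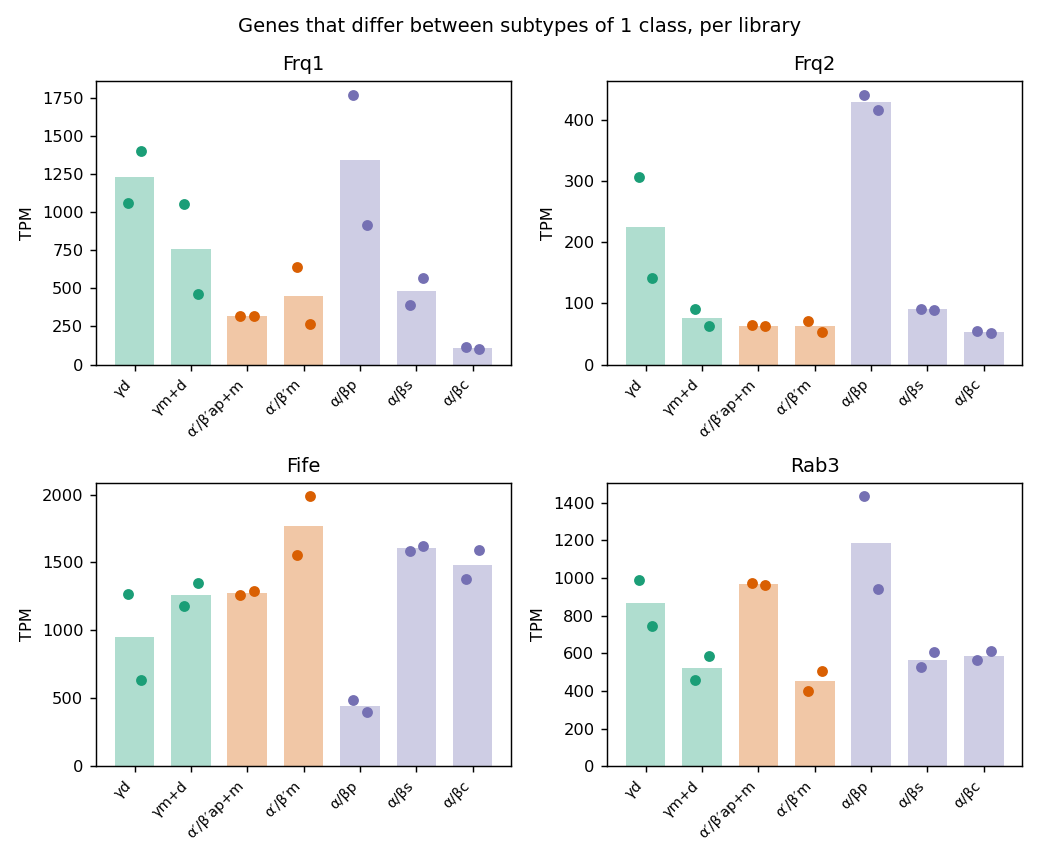
TPM per library (points; 2 per subtype) and mean of the 2 (bars) for Frq1, Frq2, Fife and Rab3, with an axis from 0. The 2 α/βp libraries are the highest of α/β for Frq1, Frq2 and Rab3 and the lowest of all 14 for Fife.

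Some markers of other cells also differed in the α/βp libraries. No GABAergic or glutamatergic gene was called between α/βp and α/βs or α/βc. Gad1, which marks GABAergic neurons, was at 154 and 88.3 TPM in α/βp, 11.8 and 10.9 TPM in α/βs and 61.7 and 46.9 TPM in α/βc, and at 2.03 to 16.1 TPM elsewhere. VGlut, the vesicular glutamate transporter gene, was at 63.0 and 37.5 TPM in α/βp and at 4.33 to 22.9 TPM elsewhere. VGAT, the other GABAergic gene looked up, did not follow Gad1. It was at 73.2 and 231 TPM in α/βp, 206 and 245 TPM in α/βs and 158 and 181 TPM in α/βc. The 2 GABAergic genes looked up summed to 227 and 319 TPM in α/βp, 218 and 256 TPM in α/βs and 220 and 228 TPM in α/βc, with neither at 0. Of the fat body list, 1 gene was called higher in α/βp than in α/βc. The list summed to 1758 and 6117 TPM in α/βp, 2466 and 1644 TPM in α/βs and 1948 and 2199 TPM in α/βc. The photoreceptor list summed to 1532 and 3789 TPM in α/βp, 1735 and 1316 TPM in α/βs and 971 and 1210 TPM in α/βc. For both lists only α/βp replicate 2 lay above all α/βs and α/βc libraries. Of the glial list, 1 gene was called lower in α/βp than in α/βs, and the list summed to 210 and 228 TPM in α/βp and 187 and 218 TPM in α/βs. The muscle list summed to 446 and 735 TPM in α/βp, 304 and 224 TPM in α/βs and 236 and 233 TPM in α/βc. The part of these cells in the α/βp differences was not tested. When the number of genes above 0 was added as a covariate, the Frq2 difference from α/βs was 1.75 (adjusted p = 0.0746) and that of Rab3 0.92 (adjusted p = 0.0747).

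Over all 7 subtypes together, an F test with at least 2-fold between the highest and the lowest subtype called 12 of the 41 genes (29.3%, beside 14.2% of all genes). They were Sytalpha, Sytbeta, Syt12, unc-13, brp, Rim, Rbp, Fife, Rab3, Frq1, Frq2 and dlg1, and RhoGAP100F also passed. With median-ratio scaling 6 were called (beside 10.9% of all genes), and without a variance trend 6 (beside 11.2%). In both cases unc-13, brp, Rbp, Fife, Rab3 and dlg1 were lost, and Sytalpha, Sytbeta, Syt12, Rim, Frq1 and Frq2 were kept. The widest span was that of Sytalpha, 4.36 on the log2 scale from α′/β′m to α/βc (adjusted p = 0.000111), followed by Sytbeta, 3.96 from α′/β′m to α/βp (adjusted p = 0.00117). The narrowest was that of shi, the fly dynamin, at 0.33 (adjusted p = 0.838), with Dap160 (intersectin) at 0.39 and lap, the fly AP180, at 0.49. RhoGAP100F was lowest in α/βp, at 589 and 587 TPM, below each of the other 12 libraries, which ranged from 755 to 1329 TPM. Its difference from α/βc was -0.72 (SE 0.17, adjusted p = 0.0438), under 2-fold.

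Of the fusion machinery none was called in any class or subtype pair. The SNARE genes were abundant. nSyb, the vesicle SNARE, was at 2444 TPM ± 591 (SD, n = 4) in γ, 2270 TPM ± 493 (SD, n = 4) in α′/β′ and 2774 TPM ± 727 (SD, n = 6) in α/β. Syx1A, the syntaxin of the plasma membrane, had a mean of 1867 TPM and Snap25 one of 407 TPM, and exons of Syx1A share 447 bases with eIF4EHP on the same strand. Csp, a vesicle chaperone, had a mean of 728 TPM, and alphaSnap, the adaptor of NSF, 74.3 TPM.

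By library, nSyb was at 3143 and 2542 TPM in γd, 2384 and 1706 TPM in γm+d, 2728 and 2566 TPM in α′/β′ap+m, and 2167 and 1620 TPM in α′/β′m. Its α/β libraries had 3953 and 3302 TPM in α/βp, 2109 and 2474 TPM in α/βs, and 2692 and 2113 TPM in α/βc. The classes overlapped throughout. Its F test over the 7 subtypes gave an adjusted p of 0.0353, but the span of 0.87 on the log2 scale stayed under 2-fold.

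Rop was at 4.87 and 13.6 TPM in γd, 23.6 and 21.4 TPM in γm+d, 21.5 and 24.9 TPM in α′/β′ap+m, and 13.6 and 18.9 TPM in α′/β′m, and at 12.2 and 15.6 TPM in α/βp, 30.3 and 12.3 TPM in α/βs, and 20.4 and 18.2 TPM in α/βc. comt was at 75.6 and 15.2 TPM in γd, 28.3 and 31.3 TPM in γm+d, 60.7 and 47.0 TPM in α′/β′ap+m, and 12.3 and 49.6 TPM in α′/β′m, and at 0.49 and 43.0 TPM in α/βp, 28.0 and 22.4 TPM in α/βs, and 24.9 and 27.7 TPM in α/βc. The classes overlapped for both genes, and neither was called. Tomosyn, listed as tomosyn and an inhibitor of SNARE assembly, was the most abundant gene of this role at a mean of 3036 TPM. It was at 826 and 1745 TPM in α/βp, below each of the other 12 libraries, which ranged from 1870 to 5434 TPM. Its F test gave an adjusted p of 0.0531, and no pair was called.

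Among the genes of vesicle supply, Syn, which encodes the vesicle-clustering synapsin, was at 457 to 879 TPM over all libraries, with no call. Rab3-GEF, which activates Rab3, had a mean of 481 TPM, and Vap33, a protein of the endoplasmic reticulum that binds lipid transfer proteins, 237 TPM. Neither was called in any pair.

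None of the 9 endocytosis genes was called in any pair or over the 7 subtypes. The most abundant was lap, at 969 and 794 TPM in γd, 835 and 644 TPM in γm+d, 706 and 710 TPM in α′/β′ap+m and 849 and 708 TPM in α′/β′m. In α/β it was at 976 and 683 TPM in α/βp, 586 and 596 TPM in α/βs and 710 and 680 TPM in α/βc. The 3 classes overlapped. The mean was 570 TPM for shi, 525 TPM for EndoA (endophilin), 190 TPM for Dap160, 151 TPM for AP-2alpha (an adaptor subunit), 84.2 TPM for Synj (the phosphatase synaptojanin) and 58.5 TPM for Chc (clathrin heavy chain). The adaptor genes stnA and stnB are annotated on the same 8332 exonic bases, and their TPM, 199 on average, were identical in every library, so they hold 1 measurement and not 2.

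Adhesion genes across the synapse gave no 2-fold class call either. dlg1, the fly relative of PSD-95 scaffolds, was at 1989 and 1958 TPM in γd, 2775 and 2715 TPM in γm+d, 3197 and 3171 TPM in α′/β′ap+m and 3834 and 4170 TPM in α′/β′m. In α/β it was at 2119 and 1587 TPM in α/βp, 2306 and 2271 TPM in α/βs and 2607 and 2628 TPM in α/βc. All 4 α′/β′ libraries lay above the other 10. The difference was -0.86 (SE 0.22, adjusted p = 0.0356) for γ against α′/β′ and 0.81 (SE 0.20, adjusted p = 0.0191) for α′/β′ against α/β, both under 2-fold. Nrx-1, the presynaptic neurexin, had a mean of 970 TPM with no call.

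The neuroligins, partners of neurexin, were lower. Nlg3 had a mean of 205 TPM, Nlg2 135 TPM, Nlg4 83.7 TPM and Nlg1 18.7 TPM. Nlg4 came nearest to a call, at 1.13 on the log2 scale for γ against α/β (SE 0.31, adjusted p = 0.0602). Nlg1 was at 1.02 and 14.7 TPM in γd, 22.3 and 30.2 TPM in γm+d, 17.8 and 15.8 TPM in α′/β′ap+m, and 23.3 and 16.8 TPM in α′/β′m. In α/β the values were 12.8 and 17.2 TPM in α/βp, 20.4 and 27.0 TPM in α/βs, and 16.6 and 26.0 TPM in α/βc. The classes overlapped, and the lowest value was that of γd replicate 1.

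To set these genes beside the rest of the presynaptic machinery, another 36 release, calcium channel, active zone and endocytosis genes were looked up. All but Syx4, at 0 to 4.01 TPM, passed the filter, which left 35 tested. Between γ and α′/β′ and between γ and α/β 0 of the 35 were called by limma, while 1 rose and 1 fell between α′/β′ and α/β. The F test over the 7 subtypes called 10 of the 35, beside 12 of the 41 members and 14.2% of all genes. By that test the listed genes thus did not stand apart from these other presynaptic genes. CASK, a membrane-associated scaffold, was at 565 and 593 TPM in α′/β′ap+m and 586 and 613 TPM in α′/β′m, against 1014 to 1831 TPM in α/β. The difference was -1.11 (SE 0.19, adjusted p = 0.00108), with no overlap. X11Lbeta, an X11/Mint family adaptor, was at 635 and 661 TPM in α′/β′ap+m and 493 and 646 TPM in α′/β′m, against 211 to 399 TPM in α/β, a difference of 1.19 (SE 0.23, adjusted p = 0.0034). Within classes, metro and AP-2sigma were lower in α/βp than in α/βc, and these 2 are named because they were the only calls in a within-class pair. The mean was 200 TPM against 586 TPM for metro (adjusted p = 0.0192) and 3.92 TPM against 52.7 TPM for AP-2sigma (adjusted p = 0.0487). AP-2sigma was near the floor, at 0 and 7.83 TPM in the α/βp libraries, and also in γd, at 0 and 0.70 TPM. Few genes were above 0 TPM in both γd libraries and in α/βp replicate 1, and the part of this in the AP-2sigma call was not tested.

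Isoform usage was compared between classes with limma's diffSplice, which asks whether a transcript shifts against the rest of its gene. Between γ and α/β 2 members were called, unc-13 and EndoA, beside 1.67% of the 3660 genes with at least 2 tested transcripts. Between α′/β′ and α/β 1 member was called, unc-13, beside 0.929% of genes. Between γ and α′/β′ 0 members were called, beside 1.12% of genes, and EndoA had an unadjusted p of 0.0438. Syt4, Syt14, Rop, comt, alphaSnap, Rab3 and Nlg4 had fewer than 2 tested transcripts and could not be tested. The 4 transcripts of Syn had identical TPM in every library, so its test could show no shift. The transcripts of stnA and stnB had the same TPM, so these genes gave 1 test and not 2. The isoform calls are therefore out of fewer than 41 members.

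The unc-13 shift lay in transcript unc-13-RA (FBtr0089245; BDGP6 chromosome 4, 870930 to 904821, minus strand, 23 exons). It was at 275 and 277 TPM in γd and 49.2 and 52.1 TPM in γm+d. The α′/β′ libraries had 314 and 329 TPM in α′/β′ap+m and 397 and 392 TPM in α′/β′m. In α/β it was at 0 to 44.7 TPM in every library, below the lowest γ library. As a share of the gene it made up 7.30% ± 1.12 (SD, n = 4) in α′/β′, 4.54% ± 4.18 (SD, n = 4) in γ and 0.431% ± 0.523 (SD, n = 6) in α/β. Within γ the γd libraries, at 9.37% and 6.69%, stood apart from γm+d, at 0.96% and 1.13%.

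The gene-level F was 6.54 (adjusted p = 0.0027) for γ against α/β and 8.51 (adjusted p = 8.01e-05) for α′/β′ against α/β, and both calls held in all 14 fits without 1 library. The shift of unc-13-RA against the rest of the gene was 4.08 on the log2 scale (adjusted p = 0.000678) and 5.36 (adjusted p = 1.51e-06). Its nearest relative, unc-13-RC, has 116 exonic bases that unc-13-RA lacks and lacks 107 that it holds, and its shift for γ against α/β was -2.80 (adjusted p = 0.0629). Its TPM were 842 to 1014 in α/β, 374 to 813 in α′/β′ and 0.03 to 771 in γ. No exonic base of unc-13-RA is absent from every other transcript of the gene, so its level rests on how kallisto divided shared reads.

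**Figure D5:**
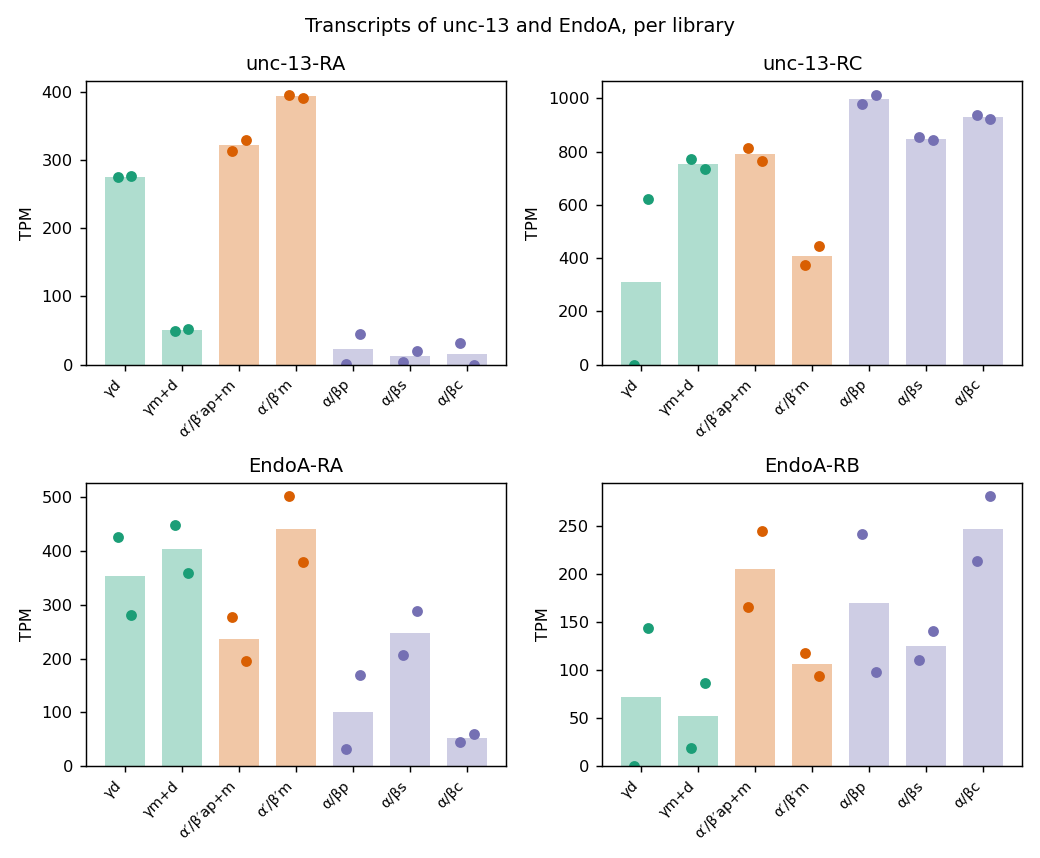
TPM per library (points; 2 per subtype) and mean of the 2 (bars) for unc-13-RA, unc-13-RC, EndoA-RA and EndoA-RB, with an axis from 0. The 6 α/β libraries lie at 0 to 44.7 TPM for unc-13-RA, and the α/βc libraries are among the highest for EndoA-RB and the lowest for EndoA-RA.

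The 3 transcripts of EndoA carry the same 1107 coding bases. EndoA-RB has a single exon and keeps 179 bases that EndoA-RA splices out, so in nuclear RNA it cannot be told apart from the unspliced form of EndoA-RA. EndoA-RB made up 10.4% ± 11.3 (SD, n = 4) of the gene in γ, 26.6% ± 16.6 (SD, n = 4) in α′/β′ and 45.6% ± 21.1 (SD, n = 6) in α/β. EndoA-RA made up 67.5% ± 19.1 in γ, 50.9% ± 8.69 in α′/β′ and 30.9% ± 21.0 in α/β.

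By library the EndoA-RB share was 0% and 24.9% in γd, 3.04% and 13.6% in γm+d, 69.1% and 27.0% in α/βp, 27.4% and 25.0% in α/βs and 62.5% and 62.4% in α/βc. The α′/β′ap+m libraries had 31.1% and 48.2%, more than the 13.9% and 13.4% of the α′/β′m libraries. The EndoA-RA share was 91.9% and 48.6% in γd, 73.0% and 56.6% in γm+d, 38.6% to 58.8% over the α′/β′ libraries, 9.25% and 47.1% in α/βp, 51.3% and 51.4% in α/βs and 13.3% and 13.1% in α/βc. For EndoA-RB the γ and α/β ranges did not overlap but nearly met, at 24.9% and 25.0%. The gene-level F was 9.39 (adjusted p = 0.0363) and the shift of EndoA-RB -3.98 (adjusted p = 0.036). The call was lost in 8 of the 14 fits without 1 library, with a highest adjusted p of 0.148.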

How the data were processed

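Nuclear RNA of 7 Kenyon cell subtypes was sequenced with 2 replicates each. Per the study's methods, seqtk trimming was followed by kallisto quantification, for which the authors used Ensembl BDGP6 transcripts plus spike-in and reporter sequences; these and ribosomal RNA were then dropped and the rest rescaled. The deposited tables hold TPM for 30484 transcripts and 13931 genes. Read depth is not kept in TPM, so no counting interval was computed. The authors' subtype and class means were not used, and their voom test on estimated counts was not repeated.

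TPM were transformed as log2(TPM + 1), quantile-normalized over 14 libraries and fitted with limma 3.58.1 in R 4.3.3 (lmFit, eBayes with a variance trend), with 1 mean per class or per subtype. Of all genes, 8646 had at least 10 TPM in at least 1 library. P-values are two-sided and adjusted by the Benjamini-Hochberg method over all tested genes of a comparison, and calls needed an adjusted p under 0.05 and a 2-fold difference. Fold changes are on the quantile-normalized log2(TPM + 1) scale. For low genes they can be smaller or larger than the ratio of mean TPM, or opposite in direction. Rop, which was not called, was highest in γd and lowest in α′/β′m on that scale. Its mean was 9.3 TPM in γd and 16.2 TPM in α′/β′m. Isoform usage was tested with diffSplice on transcripts passing the same filter. The steps were tested on simulated data. The study describes the 2 replicates of a subtype as biologically independent.

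Values per library are given for each member called between classes, within a class or for isoform usage, for the 3 highest and 3 lowest members and for the highest of each role. The members, lists and tests were chosen with earlier results of these data known. Positions come from an Ensembl annotation of BDGP6, which holds all 43 listed genes. Arl8, on the wider list, was not analysed here. Alternatives changed the pseudocount (0.1 or 5), the scaling (plain TPM or median-ratio), the filter (none, or 10 TPM in 2 libraries), the variance trend (none), the model (the number of genes above 0 as a covariate, class contrasts taken from subtypes, a replicate block, subtype means) and the libraries used. Figures were drawn with matplotlib 3.10.9.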

Additional observations from a re-analysis of the deposited data

Results flagged for a closer look

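Of 159 sets of values, each a gene or transcript within a class, 16 had 1 library far from the others by Dixon's test, and chance alone gives about 1 in 20. Most were in α/βp replicate 1 and γd replicate 1. In α/βp replicate 1, Syt1 was at 4327 TPM (next 2573 TPM), Syx1A at 2706 TPM (next 1901 TPM), lap at 976 TPM (next 710 TPM) and AP-2alpha at 271 TPM (next 144 TPM), while comt was low at 0.49 TPM (next 22.4 TPM) and Nlg2 at 34.1 TPM (next 140 TPM). In γd replicate 1, Syt14 was low at 5.90 TPM (next 57.9 TPM), as were the transcripts unc-13-RC at 0.03 TPM (next 620 TPM), unc-13-RB at 320 TPM (next 1438 TPM), unc-13-RD at 164 TPM (next 435 TPM) and EndoA-RC at 37.5 TPM (next 147 TPM). These libraries had the fewest genes above 0 TPM of their classes, at 6534 and 5632.

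In α/βp replicate 2, brp was low at 3693 TPM (next 4842 TPM) and unc-13-RF at 452 TPM (next 701 TPM). In α′/β′m replicate 1, comt was low at 12.3 TPM (next 47.0 TPM) and lap high at 849 TPM (next 710 TPM). In α′/β′ap+m replicate 2, Synj was high at 103 TPM (next 88.8 TPM).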

How the results depend on the processing

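No fold change of a called gene reversed under any alternative. The number of members called between γ and α′/β′, 5 in the main analysis, was 3 without a variance trend, 8 with class contrasts from the subtype model and 1 with 1 value per subtype. Between γ and α/β, 1 became 2 with at least 10 TPM in 2 libraries, 3 with class contrasts from the subtype model, 2 without the γd and α/βp libraries and 0 with 1 value per subtype. Between α′/β′ and α/β, 4 became 2 with 1 value per subtype. For α′/β′m against α′/β′ap+m, 1 became 0 without normalization, with median-ratio scaling and without a variance trend. For α/βp against α/βs, 3 became 0 with median-ratio scaling and without a variance trend, and 1 with the covariate. Among the 7 subtypes, 12 became 6 with median-ratio scaling and 6 without a variance trend. Leaving out 1 library gave 5 to 6 calls for γ against α′/β′, 1 to 3 for γ against α/β (3 without α/βp replicate 1, 2 without α′/β′m replicate 1), 3 to 4 for α′/β′ against α/β, 0 to 5 for γd against γm+d (5 without γd replicate 2), 0 to 1 for α′/β′m against α′/β′ap+m (0 without α′/β′m replicate 1 or either library of α′/β′ap+m, α/βs or α/βc), 0 to 4 for α/βp against α/βs (0 without α/βs replicate 2, and 1 without α/βp replicate 1, α/βs replicate 1 or either library of α′/β′ap+m or α/βc), 2 to 7 for α/βp against α/βc (7 without α/βp replicate 2), 11 to 16 among the 7 subtypes and 1 to 4 for isoform usage (4 without γm+d replicate 2, and 1 without γd replicate 1, γm+d replicate 1, α′/β′m replicate 2 or either library of α′/β′ap+m or α/βc). Where 1 library was left for a subtype, it was assumed to vary like the others. The share of all genes called is not given for the fits without 1 library or for most alternatives. Their counts therefore show how the calls depend on the data and settings used, not how the members compare with all genes.

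Replicate numbers did not pair the libraries: over 21 pairs of subtypes the correlation of replicate differences was -0.06 to 0.21, and 3 were over 0.1. With the replicate block the counts stayed at 5, 1 and 4 between classes, 0, 1, 3, 3 and 0 within classes, 12 among subtypes and 2 for isoform usage. Scaling shifted all genes: the median log2 difference for γ against α′/β′ was -0.16 after quantile normalization, -0.89 without normalization and -0.50 with median-ratio scaling, and that of the members 0.09, -0.02 and 0.54. The share of all calls that were higher in γ was 49.6%, 29.1% and 51.5%. For γ against α/β that share was 46.3%, or 31.0% without normalization, for γd against γm+d 21.0%, or 7.45%, and for α/βp against α/βc 51.8%, or 41.2%. Over the 8 pairs of classes or subtypes the median of all genes lay between -0.23 and 0.07 after quantile normalization and between -1.15 and 0.28 without it.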
